A study of Danio rerio with 12 samples.

Results

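Zebrafish kidney stromal cells, called ZKS cells in the labels, were compared with kidney pericytes. The comparison takes the 2 libraries titled ZKS and the 2 libraries titled pdgfrb, chosen by title, which are 4 of the 12 libraries of the series. All 4 came from adult wild-type fish and were sorted from the kidney, with no treatment, allele or agent given for either group. The series profiles cells of the blood-forming kidney niche by Quartz-seq, a poly-A method that amplifies cDNA from small cell numbers, and its other libraries hold sinusoid cells and gata2a+ runx1+ blood cells, some of which had been grown together with ZKS cells. The sources used here give neither the gate behind the pdgfrb title nor a passage history of the ZKS cells. A cultured stromal line bears the same name, and the labels do not say whether the profiled cells had been cultured. Whether replicates came from separate fish or cultures is not stated, so p-values reflect only the spread among these libraries, possibly a technical one.

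The fish kidney houses blood formation between its tubules, in the place that bone marrow takes in mammals. Pericytes are mural cells wrapped around small vessels. They carry the PDGF receptor beta, help build the vascular basement membrane, and in mammalian marrow overlap with the perivascular stroma that supplies Cxcl12 and Kit ligand to blood stem cells. Stromal lines from fish kidney are used as feeder layers for blood progenitors.

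The 2 ZKS libraries held 9260867 and 9880702 assigned reads and the 2 pericyte libraries 7006341 and 6984492. A count of 0 therefore allowed up to 0.324 and 0.304 CPM (reads of a gene after every library is brought to the same sum) in ZKS cells and 0.428 and 0.43 CPM in pericytes. Genes above 0 numbered 15744 and 15545 in ZKS cells and 18890 and 18122 in pericytes, so the shallower pericyte libraries detected more genes. On the log2(CPM + 1) scale the ZKS replicates correlated at 0.982 and the pericyte replicates at 0.904, against 0.562 to 0.584 between the groups. CPM is not scaled to transcript length, so levels are compared between samples and not between genes. For groups with 0 reads in both libraries, folds are lower bounds set by a floor of 3 reads per library. Where a group held 1 to 3 reads in all, the ratio is given with its 95% counting interval. These bounds and ratios use CPM as deposited or reads, without the scaling between libraries that the log2 changes use.

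Of 32047 genes, 14392 passed 1 CPM in at least 2 of the 4 libraries and were tested with limma on log2 of the scaled CPM + 1. At an adjusted p under 0.05, 6934 genes (48.2%) differed, 2757 (19.2%) higher and 4177 (29.0%) lower in ZKS cells. On CPM as deposited, which is not the scaled CPM used for the calls, both ZKS libraries lay above both pericyte libraries for 43.1% of the tested genes. They lay below them for 34.9%. The median change over all tested genes was -0.12 on the log2 scale. With CPM as deposited, without the scaling between libraries, that median was 0.25, and the split became 3958 higher and 3620 lower genes, or 52.2% of calls higher against 39.8%. With ZKS replicate 1 left out, limma called 0 genes (4786 at an unadjusted p under 0.05), and edgeR on the recovered reads called 2479. Without ZKS replicate 2 the 3 numbers were 0, 4754 and 2417. The ZKS replicates were the more alike pair, and dropping 1 of them left the spread to the pericyte pair. With 2 libraries against 2 the smallest exact two-sided permutation p for a single value is 0.333, so each adjusted p rests on the spread shared across genes.

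Gene groups are described by how many members were called in each direction, to be read against the 19.2% higher and 29.0% lower among all tested genes. A gene without reads in both libraries of a group passed the filter only if both libraries of the other group reached 1 CPM. The direction of such a gene was therefore set by the filter, and only the call was open. Groups for growth, namely cell division, sterol and serine synthesis, tRNA charging, the proteasome and nuclear transport, held mostly higher members in ZKS cells. Groups for matrix glycoproteins, basement membrane, contraction, complement and G protein signalling held mostly lower members. Interferon and antigen presentation lists held 40.9% lower members each, and the rest of their members were mostly not called. Retinoid and skeletal lists stood above the background in both directions, with 26.7% and 29.7% higher and 53.3% and 43.2% lower. For Hox, Wnt and BMP genes the higher shares of 21.2%, 19.3% and 21.3% were near the background, and their lower shares of 48.5%, 52.6% and 42.6% were above it.

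**Figure D1:**
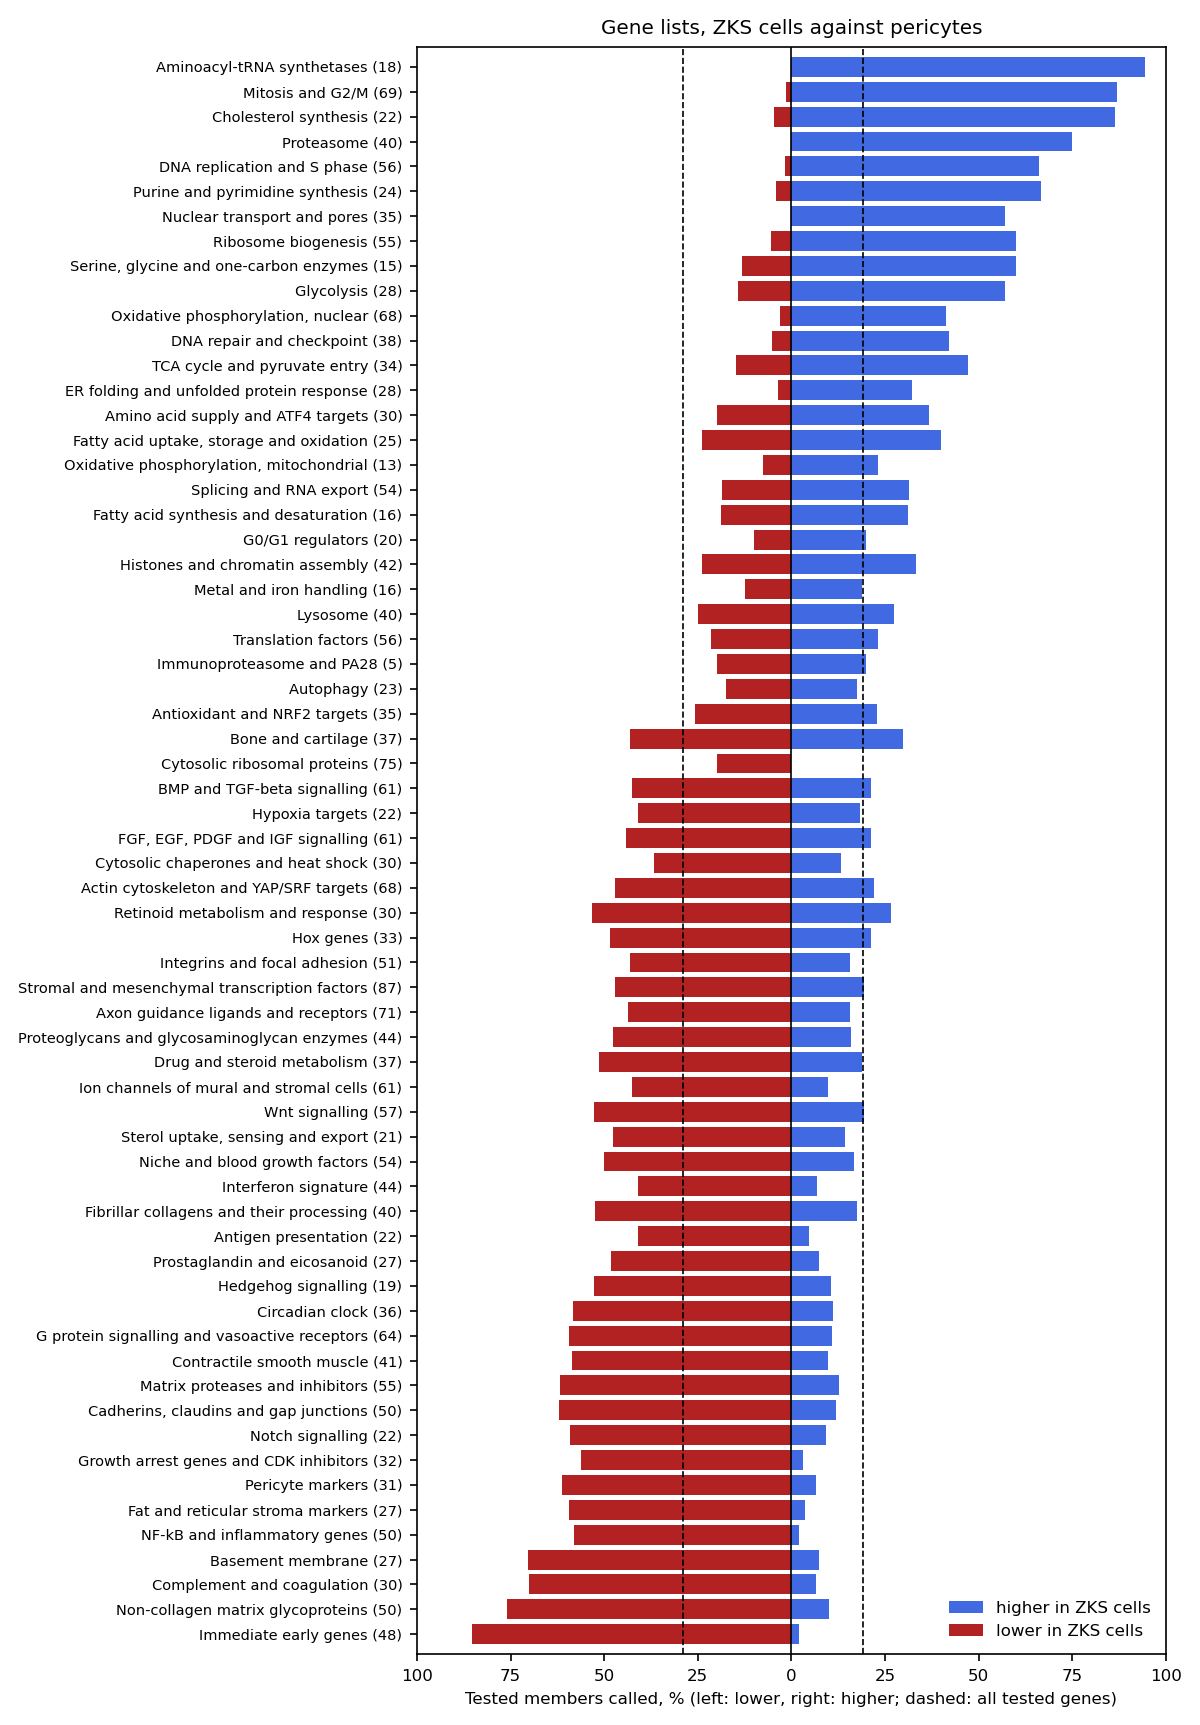
Share of the tested members of each gene list called higher (right) or lower (left) in ZKS cells than in pericytes, in percent, with the 2 dashed lines at the shares among all 14392 tested genes (19.2% higher, 29.0% lower). Numbers in brackets are members tested. tRNA synthetases and mitosis genes reach farthest right, and immediate early genes and matrix glycoproteins lie far left.

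The labels were checked against defining markers. PDGFRB (ENSDARG00000100897), the receptor for which the pericyte libraries are titled, was at 30.99 and 31.6 CPM in ZKS cells and 125 and 124 CPM in pericytes (log2 change -2.41 ± 0.21, adjusted p = 0.00164). It was detected in all 4 libraries, at about the same level in the replicates of each group, and the groups did not overlap. CSPG4 (ENSDARG00000078227), the NG2 proteoglycan of mural cells, was at 8.1 and 7.08 CPM in ZKS cells and 63.5 and 54.3 CPM in pericytes (log2 change -3.22 ± 0.28, adjusted p = 0.00165). Of 31 pericyte markers tested, 2 were higher and 19 (61.3%) lower in ZKS cells. Their median log2 change was -1.89, or -2.40 with members at 0 set to their bound. Most marker lists of other cells had a larger lower share, such as 95.5% for macrophage and 86.8% for endothelial markers. Renal tubule (54.8%), B cell (57.1%), podocyte (60.0%) and neural (39.3%) lists had smaller ones. The lower share therefore did not single out pericytes. The filter also favoured lower calls, since members without reads in ZKS cells were tested only when both pericyte libraries reached 1 CPM. The pericyte marker total was 1325 and 1304 CPM for the pericyte libraries, against 297.9 and 303 CPM for the ZKS libraries. RGS5 (ENSDARG00000002644), a G protein regulator of pericytes, was at least 142-fold lower. Its copy rgs5b, which had more reads, was lower too (log2 change -4.365 ± 0.48) but still present in ZKS cells. It averaged 345 CPM over the pericyte libraries and 22.9 CPM over the ZKS libraries. KCNJ8, the pore of a potassium channel of mural cells, was at least 34.2-fold lower, and its regulatory partner ABCC9 was lower (log2 change -5.29 ± 0.42). COX4I2 and foxd1 were not called, at 29.1 and 44.9 CPM in ZKS cells and 32.4 and 58.3 CPM in pericytes for COX4I2 and 47.1 and 34.9 CPM in ZKS cells and 21.1 and 29.5 CPM in pericytes for foxd1.

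The pericyte libraries also carried markers of other kidney cells, and these moved with the comparison. Of 22 macrophage markers tested, 21 were lower in ZKS cells and 0 higher, and their summed level was 87.2 and 99.9 CPM in ZKS cells against 5591 and 6321 CPM in pericytes. The invariant chain gene cd74a (ENSDARG00000009087) and the macrophage gene MFAP4 (ENSDARG00000116066) led that sum, whereas MPEG1 (ENSDARG00000043093) was at 0.22 and 0.2 CPM in ZKS cells and 18.7 and 10.02 CPM in pericytes and csf1ra at 0 and 0.1 CPM in ZKS cells and 5.85 and 0 CPM in pericytes. Of 38 endothelial markers 33 were lower, summing to 140.7 and 126.5 CPM against 2521 and 2544 CPM, with the vascular cadherin cdh5 at 0 in ZKS cells and at 4.42 and 2.29 CPM in pericytes and the receptor kdrl at 78.9 and 70.7 CPM in ZKS cells and 34.2 and 92.9 CPM in pericytes. Of 23 epithelial markers 17 were lower, summing to 3644 and 3588 CPM against 19240 and 20480 CPM. Podocyte markers summed to 94.9 and 94.4 CPM against 836 and 1206 CPM, multiciliated cell markers to 92.9 and 82.6 CPM against 972 and 1086 CPM, and erythroid markers to 288 and 313 CPM against 604 and 820.5 CPM. Neutrophil markers ran the other way in sum, at 33240 and 28270 CPM against 2290 and 1970 CPM, and MMP9 led that sum. Of the 17 tested members, however, 11 were lower. The marker lyz was at 0 in ZKS cells and at 0.14 CPM in each pericyte library. Other granulocyte genes were high in the pericyte libraries. The protease npsn was at 0.32 and 1.62 CPM in ZKS cells and 720.4 and 497 CPM in pericytes, and the oxidase subunit NCF1 at 0 and 0 CPM in ZKS cells and 272 and 115 CPM in pericytes. Outside that list the peroxidase EPX (ENSDARG00000019521) was at 0.43 and 0 CPM in ZKS cells and 1134 and 599 CPM in pericytes, whereas its namesake epx (ENSDARG00000012535), chosen after its values were seen, was at 24.4 and 22.3 CPM in ZKS cells and 0 and 0 CPM in pericytes. Sums were also higher in ZKS cells for thrombocyte markers, at 1095 and 1000 CPM against 578.8 and 486.8 CPM, T and NK cell markers, at 308.5 and 251.3 CPM against 135.7 and 119.9 CPM, interrenal markers, at 327.6 and 280.4 CPM against 134.9 and 158.3 CPM, and neural markers, at 816.8 and 743.1 CPM against 604.5 and 494.8 CPM. In each of these 4 lists more members were called lower than higher. Of the 42 macrophage genes matched, 28 had no reads in either ZKS library and 3 had none in either pericyte library. For the 43 endothelial genes these numbers were 19 and 1. Such genes were tested only if both libraries of the other group reached 1 CPM, so the filter favoured lower calls in these lists. In bulk samples fewer cells of a type and less RNA per cell cannot be told apart. The part of these cells in the genes lower in ZKS cells was not tested.

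**Figure D2:**
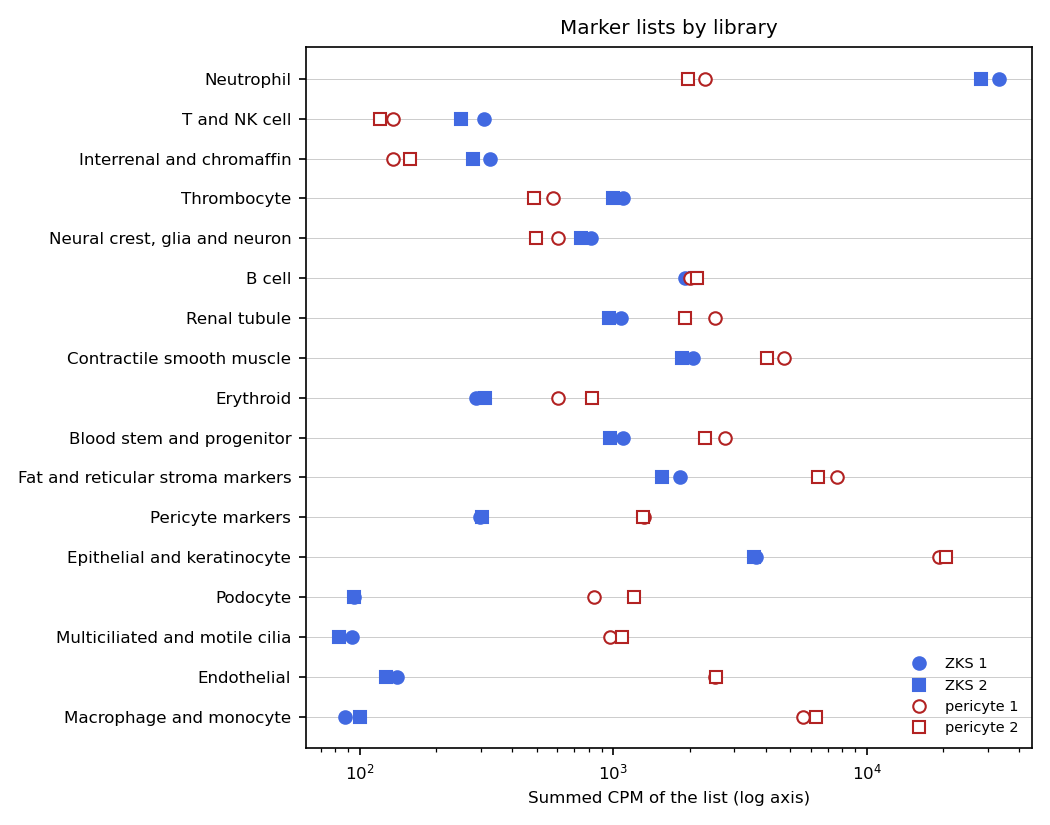
Summed CPM of the members of each marker list in each library, on a log axis, with filled points for the 2 ZKS libraries and open points for the 2 pericyte libraries. The macrophage sums are 87.2 and 99.9 CPM in ZKS cells and 5591 and 6321 CPM in pericytes, and the neutrophil sum runs the other way because of MMP9.

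The largest changes split the 2 groups by single genes. Among the 15 genes with the largest increase, STC2 (ENSDARG00000056680), a secreted stanniocalcin, was at 3459.7 and 3355 CPM in ZKS cells and 0.29 and 0.43 CPM in pericytes (log2 change 11.001 ± 0.21, adjusted p = 0.000159). EFEMP2 (ENSDARG00000094324), the fibulin that helps assemble elastic fibres, was at 27028 and 23545 CPM in ZKS cells and 32.1 and 17.9 CPM in pericytes (log2 change 9.53 ± 0.30, adjusted p = 0.000271). htr1aa (ENSDARG00000093745), a serotonin receptor, was at 495 and 666 CPM in ZKS cells and 0 and 0 CPM in pericytes (at least 1350-fold higher, adjusted p = 0.000289). Of these 3, EFEMP2 alone exceeded 10 CPM in the pericyte libraries. The rest of the 15 included HHATL (ENSDARG00000039051), SQLE (ENSDARG00000079946), pmt, slc13a5b, foxq1b, ITGA10, PHGDH, GDF10 (ENSDARG00000073891), DLL1 (ENSDARG00000020219), ambn and si:ch211-80h18.1. They hold a citrate transporter (slc13a5b), a forkhead transcription factor (foxq1b), a collagen-binding integrin chain (ITGA10) and a Notch ligand (DLL1).

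On the other side, the keratin krt94 (ENSDARG00000044975) was at 0.86 and 0.81 CPM in ZKS cells and 10102 and 10789.9 CPM in pericytes (log2 change -12.80 ± 0.19, adjusted p = 0.000146). RBP4 (ENSDARG00000101199), the retinol carrier of plasma, was at 0.32 and 0.81 CPM in ZKS cells and 3619 and 7325 CPM in pericytes (log2 change -12.00 ± 0.41, adjusted p = 0.000279). HSPB1 (ENSDARG00000041065), a small heat shock protein, was at 0.22 and 0.4 CPM in ZKS cells and 2351 and 6592 CPM in pericytes (log2 change -11.83 ± 0.52, adjusted p = 0.00038). Each was under 1 CPM in both ZKS libraries and at 2351 CPM or more in both pericyte libraries. The other 12 were cd74a, cd74b, cd34, SOCS3 (ENSDARG00000025428), FN1 (ENSDARG00000006526), ITIH5, THBS3 (ENSDARG00000077641), vcanb, EPX, si:ch211-251b21.1, si:ch211-106h4.12 and si:dkey-97i18.5. They include the invariant chain of class II antigen presentation in both copies, the cytokine inhibitor SOCS3, fibronectin and versican.

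A few genes took much of each library. In ZKS cells MMP9, a gelatinase that cleaves denatured collagen, and EFEMP2 took the most reads, ahead of the actin gene actb2. MMP9 was at 32561 and 27586 CPM in ZKS cells and 445 and 277 CPM in pericytes (log2 change 5.96 ± 0.28, adjusted p = 0.000431), with the groups far apart. Next came eef2b, eef1a1l1, RPLP0, HSP90AB1, GAPDHS, ATP5F1A and hmga1a. Of these hmga1a, an architectural chromatin protein of dividing and undifferentiated cells, was at 6658 and 6029 CPM in ZKS cells and 198 and 158 CPM in pericytes (log2 change 4.70 ± 0.20, adjusted p = 0.000356). In pericytes the list was actb2, eef1a1l1, SOCS3, JUN, JUNB (ENSDARG00000104773), eef2b, JUNB (ENSDARG00000074378), krt94, HSP90AB1 and BTG2. SOCS3, JUN, both JUNB genes, BTG2 and krt94 were all lower in ZKS cells, and actb2, eef2b and HSP90AB1 were not called.

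Enzymes of serine synthesis and 1-carbon metabolism, which supply methyl groups and nucleotide precursors, were more often higher than lower in ZKS cells. Of 15 enzymes tested, 9 were higher and 2 lower, with a median log2 change of 2.31. PHGDH (ENSDARG00000001873), the first enzyme of serine synthesis, was at 272 and 302 CPM in ZKS cells and 1.43 and 0 CPM in pericytes (log2 change 7.24 ± 0.53, adjusted p = 0.00112). PSAT1 (ENSDARG00000016733), the second, was at 277 and 309 CPM in ZKS cells and 13.4 and 24.5 CPM in pericytes (log2 change 3.49 ± 0.35, adjusted p = 0.00218). PSPH (ENSDARG00000040314), the last, was at 189 and 238 CPM in ZKS cells and 10.8 and 9.45 CPM in pericytes (log2 change 3.82 ± 0.26, adjusted p = 0.000979). The whole 3-step route from 3-phosphoglycerate to serine thus stood above pericytes in both replicates. SHMT1 (ENSDARG00000052816), which passes the serine carbon to folate, was at 329.7 and 324 CPM in ZKS cells and 27.7 and 18.6 CPM in pericytes (log2 change 3.34 ± 0.25, adjusted p = 0.00122), and AHCY (log2 change 2.81 ± 0.25) and MTR (log2 change 2.31 ± 0.43), of the methionine cycle, were also higher. GLDC (ENSDARG00000035120), which degrades glycine, went the other way at 3.13 and 1.21 CPM in ZKS cells and 200.2 and 102 CPM in pericytes (log2 change -5.95 ± 0.47, adjusted p = 0.00135).

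Charging of tRNAs with amino acids was higher almost throughout. Of 18 cytosolic synthetases tested, 17 were higher and 0 lower, with a median log2 change of 2.19. MARS1 (ENSDARG00000034396), the methionine enzyme, was at 2152 and 2159.9 CPM in ZKS cells and 136 and 60.1 CPM in pericytes (log2 change 4.10 ± 0.40, adjusted p = 0.00203). VARS1 (ENSDARG00000044575), the valine enzyme, was at 1040.2 and 1033 CPM in ZKS cells and 96.5 and 91.3 CPM in pericytes (log2 change 2.997 ± 0.17, adjusted p = 0.000652). KARS1 (ENSDARG00000103799), the lysine enzyme, was at 2561 and 2861 CPM in ZKS cells and 394 and 268 CPM in pericytes (log2 change 2.60 ± 0.25, adjusted p = 0.00203). The ZKS replicates lay within a few percent of each other for MARS1 and VARS1 and the pericyte pair was more spread for MARS1. Among amino acid transporters and ATF4 targets, which cells induce when amino acids run short, calls were mixed, with 11 higher and 6 lower of 30. The neutral amino acid transporter SLC1A4 was at 634 and 559 CPM in ZKS cells and 10.4 and 14.3 CPM in pericytes (log2 change 5.06 ± 0.24, adjusted p = 0.000439), whereas the transporter SLC38A2 was lower (log2 change -1.59 ± 0.21) and the stress factors DDIT3, atf4a and TRIB3 were not called.

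Nucleotide synthesis followed the same direction. Of 24 enzymes tested, 16 were higher and 1 lower (median 1.41). RRM1 (ENSDARG00000014017), the large subunit of ribonucleotide reductase, was at 792 and 730.2 CPM in ZKS cells and 110.2 and 59.6 CPM in pericytes (log2 change 2.76 ± 0.31, adjusted p = 0.00305). Its small subunit, present as 2 copies under 1 symbol, was higher in both, RRM2 (ENSDARG00000078069, log2 change 3.98 ± 0.51) and RRM2 (ENSDARG00000020711, log2 change 2.78 ± 0.45). ATIC (ENSDARG00000016706), which closes the purine ring, was at 633 and 646 CPM in ZKS cells and 103 and 76.03 CPM in pericytes (log2 change 2.39 ± 0.22, adjusted p = 0.0018). PAICS, IMPDH2 and CTPS1 (ENSDARG00000030700) were not called, with IMPDH2, the entry to guanine nucleotides, at 139 and 148 CPM in ZKS cells and 86.2 and 108 CPM in pericytes.

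Proteasome subunits were mostly higher in ZKS cells. Of 40 proteasome subunits tested, 30 were higher and 0 lower (median 1.66). PSMB5 (ENSDARG00000075445), a catalytic subunit, was at 132 and 151 CPM in ZKS cells and 5.71 and 9.31 CPM in pericytes (log2 change 3.66 ± 0.33, adjusted p = 0.0018). PSMD8 (ENSDARG00000020454), of the regulatory lid, was at 224 and 309 CPM in ZKS cells and 37.8 and 34.2 CPM in pericytes (log2 change 2.39 ± 0.26, adjusted p = 0.0027). The groups did not overlap for either, and for PSMB1, another core subunit, at 172 and 311 CPM in ZKS cells and 25.4 and 59.1 CPM in pericytes, the 2 ZKS libraries were themselves well apart. The catalytic subunits of the immunoproteasome PSMB8, PSMB9 and PSMB10 were not called, and PSMB8 was at 11.8 and 13.6 CPM in ZKS cells and 21.98 and 10.7 CPM in pericytes.

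Of 35 importins, exportins and pore proteins tested, 20 were higher and 0 lower (median 0.98). KPNA2 (ENSDARG00000038066), an importin alpha chain of dividing cells, was at 1149.8 and 1303 CPM in ZKS cells and 41.4 and 22.1 CPM in pericytes (log2 change 4.84 ± 0.33, adjusted p = 0.000979). IPO9 (ENSDARG00000016753), an importin of the beta family, was at 115 and 99.1 CPM in ZKS cells and 7.42 and 4.3 CPM in pericytes (log2 change 3.59 ± 0.33, adjusted p = 0.00187), and the exportin xpo1a at 375 and 361 CPM in ZKS cells and 99.5 and 37.1 CPM in pericytes (log2 change 2.13 ± 0.46, adjusted p = 0.0177). KPNB1, the main importin beta, was at 559 and 542 CPM in ZKS cells and 774 and 517 CPM in pericytes (adjusted p = 0.0759) and RAN, the GTPase that drives the cycle, at 566 and 679.6 CPM in ZKS cells and 264 and 302 CPM in pericytes (adjusted p = 0.0529). The cargo-binding chain KPNA2 thus passed the threshold while the carrier and the GTPase missed it.

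Ribosome assembly factors were higher for 33 of 55 tested and lower for 3 (median 1.17). RRP9 (ENSDARG00000041991), a part of the U3 particle that processes ribosomal RNA, was at 22.5 and 23.3 CPM in ZKS cells and 0.43 and 1 CPM in pericytes (log2 change 3.504 ± 0.44, adjusted p = 0.00391). tsr1 (ENSDARG00000007744), needed for the small subunit, was at 437 and 455 CPM in ZKS cells and 107 and 47.2 CPM in pericytes (log2 change 2.18 ± 0.40, adjusted p = 0.0107). Of 75 cytosolic ribosomal proteins, in contrast, 0 were higher and 15 lower (median -0.78). That lower share was below the 29.0% among all tested genes. Their summed level overlapped, at 36200 and 53790 CPM for the ZKS libraries against 39300 and 59160 CPM for the pericyte libraries. With CPM as deposited the counts of higher and lower members were 1 and 9 and the median -0.32, so the sign of the median held. The median was -1.19 without pericyte replicate 1 and -0.34 without pericyte replicate 2. RPL3 (ENSDARG00000003599) was at 1709.8 and 2827 CPM in ZKS cells and 4367 and 6299 CPM in pericytes (log2 change -1.71 ± 0.37, adjusted p = 0.0173), and RPLP0 at 8197 and 10898 CPM in ZKS cells and 4515 and 5216 CPM in pericytes (adjusted p = 0.194). Translation factors were divided, with 13 higher and 12 lower of 56, and their median of -0.26 turned to 0.19 with CPM as deposited.

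**Figure D3:**
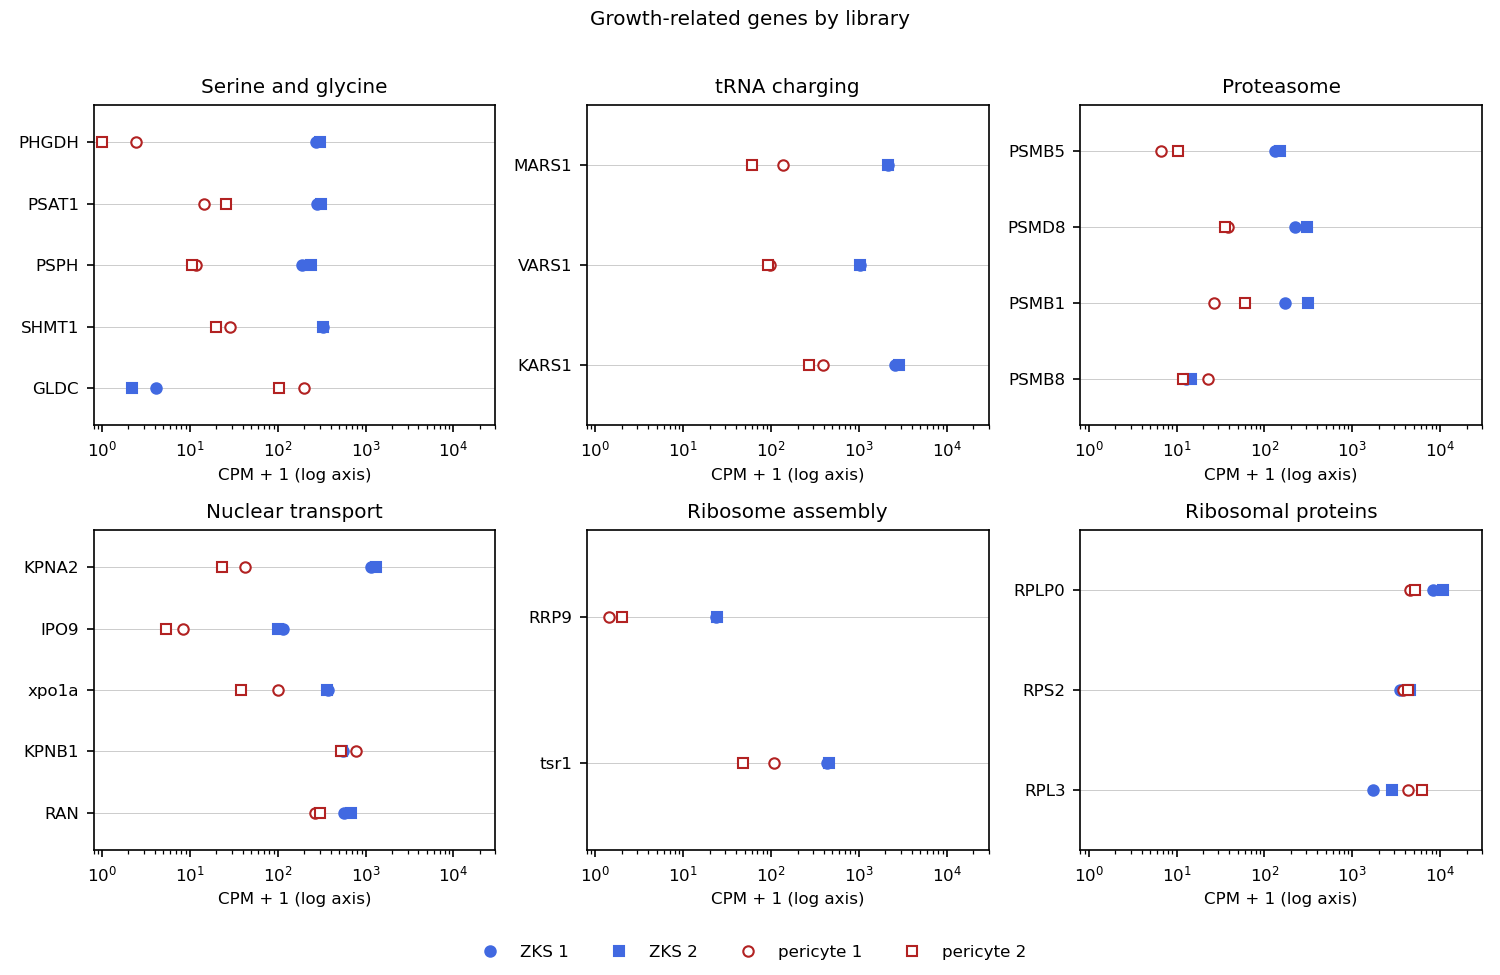
CPM + 1 in each library, on a log axis, for genes of serine synthesis, tRNA charging, the proteasome, nuclear transport and ribosomes, with filled points for ZKS libraries and open points for pericyte libraries. PHGDH is at 272 and 302 CPM in ZKS cells and at 1.43 and 0 CPM in pericytes, whereas the groups overlap for RPS2, a ribosomal protein gene.

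Energy metabolism was higher for part of its enzymes. Of 28 glycolytic genes tested, 16 were higher and 4 lower (median 1.97). LDHA (ENSDARG00000101251), which turns pyruvate into lactate, was at 2024 and 2098 CPM in ZKS cells and 206 and 238 CPM in pericytes (log2 change 2.76 ± 0.19, adjusted p = 0.00103). ENO1 (ENSDARG00000013750), the enolase, was at 175 and 196 CPM in ZKS cells and 2.85 and 0.29 CPM in pericytes (log2 change 6.05 ± 0.61, adjusted p = 0.00225). PFKFB3 (ENSDARG00000001953), which makes the activator of phosphofructokinase, was lower, at 176 and 139.6 CPM in ZKS cells and 428 and 703 CPM in pericytes (log2 change -2.26 ± 0.30, adjusted p = 0.00454). Glycolytic copies were not moved alike: GAPDHS was higher (log2 change 2.12 ± 0.24), and GAPDH was at least 37.7-fold lower, at 0 in both ZKS libraries.

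In respiration, 16 of 34 citric acid cycle genes and 28 of 68 nuclear respiratory chain genes were higher, and 5 and 2 lower. ATP5F1A (ENSDARG00000010149), the alpha subunit of ATP synthase, was at 6587 and 7064 CPM in ZKS cells and 1191 and 874 CPM in pericytes (log2 change 2.28 ± 0.24, adjusted p = 0.00247). Of the 13 respiratory genes of the mitochondrial genome, 3 were higher and 1 lower. Of 25 genes of fatty acid uptake, storage and oxidation, 10 were higher and 6 lower. The higher members included HADHA (ENSDARG00000060594) at 394 and 392 CPM in ZKS cells and 67.5 and 49.7 CPM in pericytes (log2 change 2.29 ± 0.22, adjusted p = 0.00203) and CPT1A (ENSDARG00000059770) at 179.8 and 150.5 CPM in ZKS cells and 21.98 and 45.7 CPM in pericytes (log2 change 1.89 ± 0.39, adjusted p = 0.0154). The lower members included LPL (ENSDARG00000087697, log2 change -2.50 ± 0.28), the lipoprotein lipase, ANGPTL4 (log2 change -1.88 ± 0.18), its inhibitor, and fabp4a (at least 71.3-fold lower), a fatty acid binding protein of fat cells.

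Sterol synthesis genes were mostly higher, and genes of sterol uptake, sensing and export more often lower than higher. Synthesis was higher for 19 of 22 genes and lower for 1 (median 3.81). Among genes of uptake, sensing and export, 3 were higher and 10 lower of 21 (median -0.78). ldlrb (ENSDARG00000026759), an LDL receptor, was at 106 and 79.5 CPM in ZKS cells and 5.71 and 2 CPM in pericytes (log2 change 3.97 ± 0.48, adjusted p = 0.00343). In mammals the LDL receptor gene is, like the synthesis genes, a target of the sterol-sensing factor SREBP2, whose own gene srebf2 was at 144 and 121 CPM in ZKS cells and 102 and 68.7 CPM in pericytes (adjusted p = 0.548).

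Genes of cholesterol export were among the lower members. ABCA1 (ENSDARG00000074635), the cholesterol exporter, was at 29.1 and 19.9 CPM in ZKS cells and 1063 and 1019 CPM in pericytes (log2 change -5.82 ± 0.22, adjusted p = 0.000296), and apoeb (ENSDARG00000040295), an apolipoprotein E, at 5.94 and 4.55 CPM in ZKS cells and 159.7 and 169.5 CPM in pericytes (log2 change -5.15 ± 0.26, adjusted p = 0.000475). Both copies of MYLIP (ENSDARG00000055118), the ligase that degrades LDL receptors when sterol is plentiful, were lower, at 2.38 and 2.13 CPM in ZKS cells and 22.7 and 20.04 CPM in pericytes (log2 change -3.15 ± 0.39) and, for ENSDARG00000008859, at 4.32 and 2.43 CPM in ZKS cells and 22.1 and 24.2 CPM in pericytes (log2 change -2.89 ± 0.41). These are targets of the liver X receptors in mammals, and NR1H3 itself was at 33.4 and 29.1 CPM in ZKS cells and 56.1 and 34.8 CPM in pericytes (adjusted p = 0.0575). Of 16 genes of fatty acid synthesis and desaturation, 5 were higher and 3 lower. The desaturase SCD was higher, at 96.2 and 76.5 CPM in ZKS cells and 0 and 2.58 CPM in pericytes (log2 change 5.20 ± 0.73, adjusted p = 0.00511), and its other copy scdb lower, at 0 and 0 CPM in ZKS cells and 2.85 and 10.02 CPM in pericytes (at least 19.9-fold lower, adjusted p = 0.0155). Also higher was the elongase ELOVL2, at 37.1 and 50.2 CPM in ZKS cells and 0.86 and 0 CPM in pericytes (log2 change 4.75 ± 0.53, adjusted p = 0.00293), while the fatty acid synthase FASN was at 63.9 and 42.5 CPM in ZKS cells and 32.5 and 52.4 CPM in pericytes (adjusted p = 0.804).

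Cell cycle genes were mostly higher, with 60 of 69 mitotic and 37 of 56 replication genes called higher and 1 of each list lower. FOXM1 (ENSDARG00000003200), the factor that switches on mitotic genes, was at 93.2 and 72.4 CPM in ZKS cells and 1.14 and 0 CPM in pericytes (log2 change 5.55 ± 0.53, adjusted p = 0.00203). CCND1 (ENSDARG00000101637), the cyclin of early G1, was at 995 and 842 CPM in ZKS cells and 67.4 and 26.8 CPM in pericytes (log2 change 3.94 ± 0.44, adjusted p = 0.00285). Genes that hold the cycle back formed the opposite group. Of 32 growth arrest genes and CDK inhibitors 1 was higher and 18 were lower (median -1.77, or -1.90 with bounds).

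SESN1 (ENSDARG00000020693), a stress-induced brake on growth signalling, was at 8.42 and 7.49 CPM in ZKS cells and 797 and 739.5 CPM in pericytes (log2 change -6.85 ± 0.20, adjusted p = 0.000235), and foxo3b (ENSDARG00000042904), a forkhead factor of resting cells, at 3.67 and 4.45 CPM in ZKS cells and 497 and 482 CPM in pericytes (log2 change -7.01 ± 0.23, adjusted p = 0.000276). Both stood far apart between the groups. The CDK inhibitor cdkn1a was not among them, at 168 and 144 CPM in ZKS cells and 93.3 and 81.6 CPM in pericytes (adjusted p = 0.169), and RB1 (ENSDARG00000006782), a retinoblastoma gene, was the higher member (log2 change 2.09 ± 0.43). Of the Myc genes, MYC (ENSDARG00000007241, log2 change -5.76 ± 0.17) and mych (log2 change -3.06 ± 0.19) were lower, the first at 100.1 and 91.1 CPM in ZKS cells and 3753 and 3899 CPM in pericytes, and the other MYC copy, MYC (ENSDARG00000045695), was at 33.5 and 40.5 CPM in ZKS cells and 21.3 and 25.1 CPM in pericytes (adjusted p = 0.578).

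Skeletal genes differed in both directions. Of 37 bone and cartilage genes tested, 11 were higher and 16 lower, with a median of -0.02 that became 0.21 with CPM as deposited. That median was -1.58 without pericyte replicate 1 and 0.61 without pericyte replicate 2. The higher members include regulators of the bone-forming cell. SP7 (ENSDARG00000019516), osterix, was at 11.7 and 7.29 CPM in ZKS cells and 0 and 0 CPM in pericytes (at least 22-fold higher, adjusted p = 0.00372), and both Runx2 genes were higher, with RUNX2 (ENSDARG00000040261) at 4.75 and 7.49 CPM in ZKS cells and 0 and 0 CPM in pericytes (at least 14.2-fold higher, adjusted p = 0.00568). These regulators were low in ZKS cells and at 0 in both pericyte libraries for the genes given.

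Enzymes that act on phosphate compounds were among the higher members. enpp1 (ENSDARG00000005789), which makes the mineral inhibitor pyrophosphate, was at 789.9 and 769 CPM in ZKS cells and 49.95 and 95.6 CPM in pericytes (log2 change 3.02 ± 0.35, adjusted p = 0.00315). ALPL (ENSDARG00000015546), the phosphatase that removes it, was at 114 and 91.3 CPM in ZKS cells and 26.4 and 16.8 CPM in pericytes (log2 change 1.78 ± 0.30, adjusted p = 0.0082), and PHEX (ENSDARG00000062363), a protease that controls phosphate, at 418 and 333 CPM in ZKS cells and 47.1 and 40.95 CPM in pericytes (log2 change 2.61 ± 0.20, adjusted p = 0.00129). Makers and removers of pyrophosphate were thus both higher in ZKS cells. ambn (ENSDARG00000075598), ameloblastin of the enamel matrix, was at 172 and 157 CPM in ZKS cells and 0.86 and 0 CPM in pericytes (log2 change 6.64 ± 0.45, adjusted p = 0.000979). scpp1, a related secretory phosphoprotein gene chosen after its values were seen, was at 109 and 118 CPM in ZKS cells and 0 and 0.86 CPM in pericytes (log2 change 6.11 ± 0.48, adjusted p = 0.00131). ihha (ENSDARG00000058733), the hedgehog ligand of growing cartilage in mammals, was at 221 and 253 CPM in ZKS cells and 0.57 and 11.9 CPM in pericytes (log2 change 5.34 ± 1.04, adjusted p = 0.0126), with pericyte replicate 2 well above replicate 1. The mature bone gene bglap was at 0 in all 4 libraries, and spp1 was not called, at 64.2 and 55.5 CPM in ZKS cells and 11.1 and 33.9 CPM in pericytes.

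The lower members included inhibitors of mineral and of bone formation and cartilage genes. mgp (ENSDARG00000086189), which keeps soft tissue from mineralising, was at 0 and 0 CPM in ZKS cells and 46.5 and 166 CPM in pericytes (at least 328-fold lower, adjusted p = 0.0024), and SOST (ENSDARG00000061259), a Wnt inhibitor of bone in mammals, at 0 and 0 CPM in ZKS cells and 76.9 and 64.00 CPM in pericytes (at least 217-fold lower, adjusted p = 0.000727). chad (ENSDARG00000045071), a cartilage matrix protein, and COL2A1 (ENSDARG00000011407), the cartilage collagen, were at 0.43 and 0 CPM in ZKS cells and 49.8 and 57.3 CPM in pericytes for chad and 1.73 and 0.4 CPM in ZKS cells and 68.5 and 91.8 CPM in pericytes for COL2A1. None of the 4 exceeded 2 CPM in a ZKS library, and all exceeded 46 CPM in both pericyte libraries. The receptor activator ligand tnfsf11 and its decoy tnfrsf11b were both lower and under 10 CPM in every library.

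Retinoid genes differed in both directions. Vitamin A is carried as retinol, stored as esters, oxidised to retinal and then to retinoic acid, and cleared by the Cyp26 enzymes. Of 30 genes tested, 8 were higher and 16 lower (median -2.12). Carriers and enzymes on the way to retinoic acid were among the lower members. ALDH1A2 (ENSDARG00000053493), which makes retinoic acid, was at 0 and 0 CPM in ZKS cells and 169 and 78.9 CPM in pericytes (at least 382-fold lower, adjusted p = 0.000979), and RDH10 (ENSDARG00000058730), which makes retinal, at 0 and 0 CPM in ZKS cells and 48.7 and 43.7 CPM in pericytes (at least 142-fold lower, adjusted p = 0.000998). CRABP2 (ENSDARG00000073978), the carrier of retinoic acid to the nucleus, was at 2.92 and 1.21 CPM in ZKS cells and 842 and 886 CPM in pericytes (log2 change -8.57 ± 0.32, adjusted p = 0.000289). With RBP4, these genes had at most 2.92 CPM in a ZKS library. Second copies were lower too, with more reads left in ZKS cells. CRABP2 (ENSDARG00000030449) averaged 78.2 CPM there against 352 CPM in pericytes, and RDH10 (ENSDARG00000012369) 9.91 against 89.7 CPM. The receptor raraa was at 3.24 and 1.52 CPM in ZKS cells and 197 and 152 CPM in pericytes (log2 change -6.11 ± 0.35, adjusted p = 0.00065), while its copy rarab was higher (20.5-fold higher, with a counting interval of 5.41 to 173) at no more than 3.04 CPM in any library.

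Genes of clearance, ester formation and carotene cleavage were among the higher members. CYP26B1 (ENSDARG00000077121), which degrades retinoic acid, was at 815 and 646 CPM in ZKS cells and 2.43 and 33.9 CPM in pericytes (log2 change 5.63 ± 1.10, adjusted p = 0.0129). lratb.1 (ENSDARG00000096594), which forms retinyl esters, was at 119 and 163 CPM in ZKS cells and 1.28 and 4.87 CPM in pericytes (log2 change 4.87 ± 0.56, adjusted p = 0.00312), and BCO1 (ENSDARG00000104256), which cleaves beta-carotene, at 112 and 108 CPM in ZKS cells and 0 and 2 CPM in pericytes (log2 change 5.69 ± 0.65, adjusted p = 0.00303). The groups did not overlap for any of them, although the pericyte replicates were themselves far apart for CYP26B1. RDH11 (log2 change 4.61 ± 0.40) and retsat.2 (log2 change 1.45 ± 0.33), a retinal reductase and a saturase of retinol, were higher too. Both copies of DHRS3, which also reduces retinal to retinol, were lower, at 62.9 and 68.9 CPM in ZKS cells and 150.2 and 198 CPM in pericytes (log2 change -1.83 ± 0.24) for ENSDARG00000044803 and 0.65 and 0.2 CPM in ZKS cells and 52.1 and 74.9 CPM in pericytes (log2 change -5.79 ± 0.43) for ENSDARG00000044982. RDH11 and DHRS3 thus differed in opposite directions. Podocyte and epithelial markers were also higher in the pericyte libraries, and their part in the retinoid genes was not tested.

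Drug and steroid genes were more often lower than higher, and the genes named here were called in each direction. CYP24A1 (ENSDARG00000103277), which inactivates vitamin D hormone, was at 1143 and 1038 CPM in ZKS cells and 94.6 and 90.8 CPM in pericytes (log2 change 3.09 ± 0.17, adjusted p = 0.000621). NR3C1 (ENSDARG00000025032), the glucocorticoid receptor, was at 79.7 and 59.2 CPM in ZKS cells and 1.71 and 3.58 CPM in pericytes (log2 change 3.92 ± 0.42, adjusted p = 0.00266). FKBP5 (ENSDARG00000028396), a chaperone induced by glucocorticoids, was at 120.4 and 85.3 CPM in ZKS cells and 3222 and 2049 CPM in pericytes (log2 change -5.10 ± 0.29, adjusted p = 0.000621), and HSD11B2 (ENSDARG00000001975), which inactivates cortisol, at 0 and 0 CPM in ZKS cells and 129 and 129.7 CPM in pericytes (at least 399-fold lower, adjusted p = 0.000431). The receptor was therefore higher in ZKS cells where FKBP5, its target in mammals, was lower. tsc22d3 and KLF9, targets of the receptor in mammals, were lower as well, log2 change -3.04 ± 0.22 for tsc22d3 and log2 change -5.30 ± 0.41 for KLF9, and tsc22d3 was chosen after its values were seen. Of all 37 drug and steroid genes tested, 7 (18.9%) were higher, near the 19.2% among all tested genes. The lower ones numbered 19 (51.4%), above the 29.0% among all tested genes. Among them was the steroid enzyme CYP17A1, at 0 in ZKS cells and at 68.1 and 22.9 CPM in pericytes.

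Clock genes were mostly lower, with activator genes among the exceptions. Of 36 tested, 4 were higher and 21 lower (median -1.68). PER2 (ENSDARG00000034503), a light-induced repressor of the clock in fish, was at 15.1 and 20.04 CPM in ZKS cells and 752 and 622 CPM in pericytes (log2 change -5.66 ± 0.25, adjusted p = 0.000376), and NR1D1 (ENSDARG00000033160), which represses the activator genes, at 1.08 and 1.82 CPM in ZKS cells and 38.8 and 49.1 CPM in pericytes (log2 change -4.55 ± 0.41, adjusted p = 0.00173). nfil3-6, a repressor of clock output, was at 4.21 and 4.86 CPM in ZKS cells and 298 and 174 CPM in pericytes (log2 change -5.78 ± 0.34, adjusted p = 0.00067). BMAL1 (ENSDARG00000006791), the activator, was instead higher, at 59.5 and 57.2 CPM in ZKS cells and 13.99 and 16.8 CPM in pericytes (log2 change 1.42 ± 0.26, adjusted p = 0.011), and rorcb, of the family that drives it, at 12.2 and 10.4 CPM in ZKS cells and 0.43 and 1.72 CPM in pericytes (log2 change 2.32 ± 0.52, adjusted p = 0.0189). Repressors and output factors such as tefa (log2 change -3.03 ± 0.26) thus stood against BMAL1 and rorcb. BHLHE40, another clock repressor, was not called, at 835 and 806 CPM in ZKS cells and 484 and 536 CPM in pericytes. The sources used here do not give the time of day of sampling, so time and cell type cannot be told apart for these genes.

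**Figure D4:**
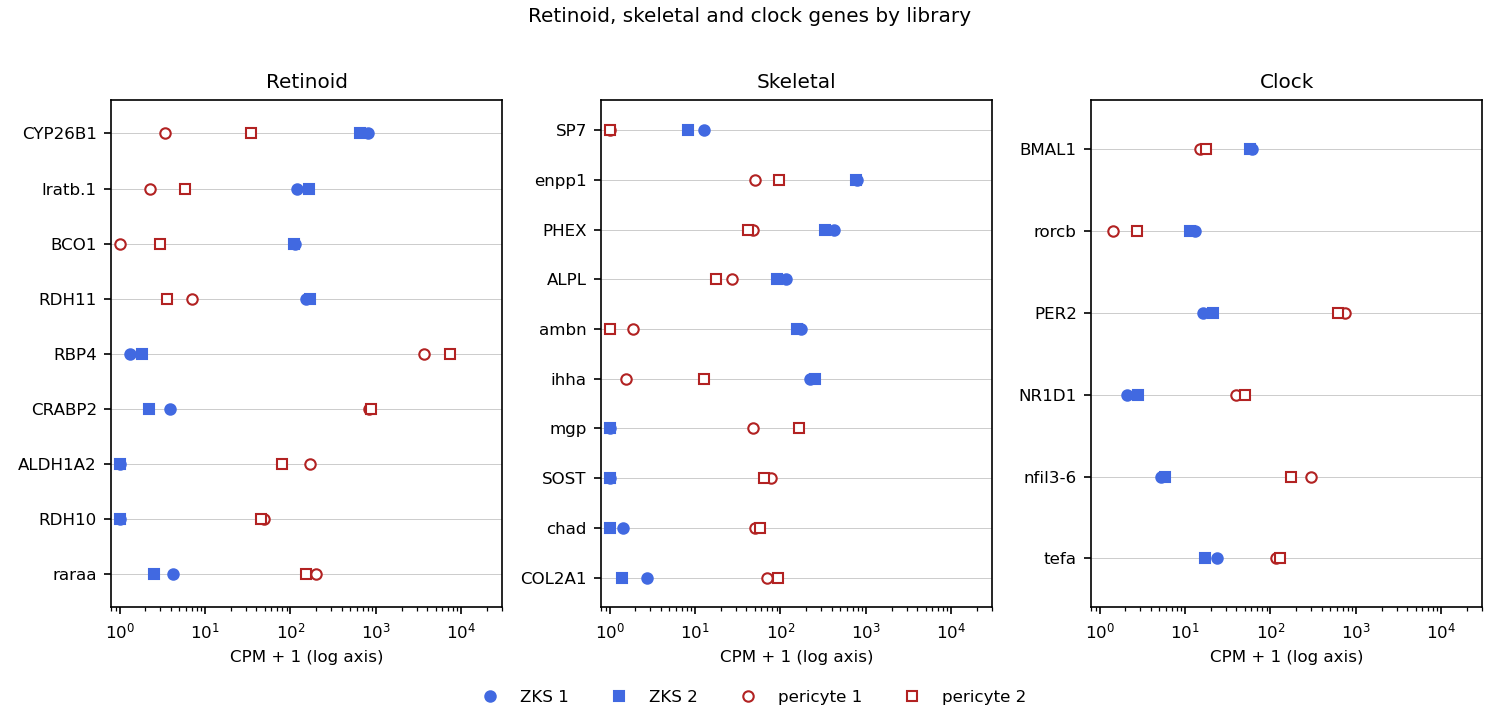
CPM + 1 in each library, on a log axis, for retinoid, skeletal and clock genes, with filled points for ZKS libraries and open points for pericyte libraries. Within each panel the upper genes are higher and the lower genes are lower in ZKS cells, as for CYP26B1 (815 and 646 CPM against 2.43 and 33.9 CPM) and ALDH1A2 (0 in both ZKS libraries against 169 and 78.9 CPM).

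Transcription factors of mesenchyme were more often lower than higher. Of 87 tested, 17 (19.5%) were higher, near the 19.2% among all tested genes. The lower ones numbered 41 (47.1%), above the 29.0% among all tested genes. DLX3 (ENSDARG00000014626) and DLX5 (ENSDARG00000042296), homeobox factors of skeletal and dental mesenchyme, were at 836 and 692 CPM in ZKS cells and 4.71 and 25.1 CPM in pericytes for DLX3 (log2 change 5.53 ± 0.74, adjusted p = 0.00449) and 106 and 95.1 CPM in ZKS cells and 1.57 and 4.87 CPM in pericytes for DLX5 (log2 change 4.31 ± 0.49, adjusted p = 0.00309). MKX (ENSDARG00000075450), a tendon factor, was at 60.6 and 34.6 CPM in ZKS cells and 1.28 and 0 CPM in pericytes (log2 change 4.67 ± 0.61, adjusted p = 0.00423). msx1b, msx2b, IRX5 and MEOX2 were higher as well, with msx1b (log2 change 3.23 ± 0.31) and IRX5 (log2 change 3.71 ± 0.42). FOXD3, a neural crest factor, was 224-fold higher, with a counting interval of 61.8 to 1850.

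The lower factors included those of kidney and visceral mesenchyme. OSR1 (ENSDARG00000014091), of the intermediate mesoderm, was at 6.69 and 7.49 CPM in ZKS cells and 185 and 199 CPM in pericytes (adjusted p = 0.000452). Its relative OSR2 was at 0 and 0.2 CPM in ZKS cells and 121 and 120.4 CPM in pericytes (1150-fold lower, with a counting interval of 319 to 9540), and LMX1B (ENSDARG00000068365), of limb and podocyte, at 0 and 0.1 CPM in ZKS cells and 42.5 and 52.4 CPM in pericytes (908-fold lower, with a counting interval of 162 to 35900). FOXL2 (ENSDARG00000068417), a forkhead factor, was at 0 and 0 CPM in ZKS cells and 56.4 and 28.4 CPM in pericytes (at least 131-fold lower, adjusted p = 0.00172), and GATA6 (ENSDARG00000103589) at 0 and 1.01 CPM in ZKS cells and 62.2 and 30.1 CPM in pericytes (log2 change -5.23 ± 0.57, adjusted p = 0.00277). The podocyte and stroma gene wt1b was at 1.51 and 0.81 CPM in ZKS cells and 62.5 and 82.2 CPM in pericytes (log2 change -5.44 ± 0.38, adjusted p = 0.00104). All of these factors had at most 7.49 CPM in a ZKS library. twist1a, MEF2A and foxp1a were not called, with twist1a at 73.2 and 99.3 CPM in ZKS cells and 102 and 185 CPM in pericytes.

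Hox genes, which record position along the body, were higher for 7 and lower for 16 of 33 tested with their Meis and Pbx partners. HOXA11 (ENSDARG00000007009) was at 163 and 145 CPM in ZKS cells and 6.42 and 3.44 CPM in pericytes (log2 change 4.34 ± 0.34, adjusted p = 0.00131), and hoxa10b at 117 and 128 CPM in ZKS cells and 7.71 and 17.3 CPM in pericytes (log2 change 2.86 ± 0.43, adjusted p = 0.00612). HOXC8 (ENSDARG00000070346) was at 0 and 0.51 CPM in ZKS cells and 50.4 and 45.7 CPM in pericytes (log2 change -5.57 ± 0.42, adjusted p = 0.00124), and HOXC6 (ENSDARG00000070343) at 0.43 and 0 CPM in ZKS cells and 20.4 and 12.9 CPM in pericytes (log2 change -4.10 ± 0.47, adjusted p = 0.00303). All 7 higher Hox genes belonged to paralogue groups 9 to 11 of the A and C clusters, among them hoxa9b (log2 change 1.53 ± 0.31), HOXC10 (log2 change 2.56 ± 0.79) and HOXC11 (log2 change 1.93 ± 0.43). Of the lower Hox genes HOXC9 and HOXD9 belonged to group 9 and the other 8 to groups 3 to 8, among them HOXB8 (at least 38.3-fold lower), HOXB3 (log2 change -1.69 ± 0.43) and hoxc3a (log2 change -3.28 ± 0.40). The remaining lower members were Meis and Pbx partners. The partner genes meis2b and meis3 had 0 reads in both ZKS libraries (at least 144-fold lower and at least 91.1-fold lower).

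Most matrix glycoprotein and basement membrane genes were lower. Of 50 matrix glycoproteins tested, 5 were higher and 38 lower (median -3.36, or -3.96 with bounds), and of 27 basement membrane genes 2 and 19 (median -3.23, or -3.26 with bounds). The summed level of the glycoproteins ran the other way, at 33340 and 29490 CPM in ZKS cells against 20610 and 19970 CPM in pericytes, and EFEMP2 led it in ZKS cells. FN1 (ENSDARG00000006526), a fibronectin, was at 2.27 and 1.62 CPM in ZKS cells and 3885 and 2809.9 CPM in pericytes (log2 change -10.52 ± 0.24, adjusted p = 0.000222), and LAMB1 (ENSDARG00000101209), a laminin chain, at 1.73 and 2.83 CPM in ZKS cells and 503 and 563 CPM in pericytes (log2 change -7.74 ± 0.29, adjusted p = 0.000289). Among fibrillar collagens and their enzymes 7 were higher and 21 lower of 40. Collagens among the lower members included COL1A1 (ENSDARG00000035809) at 14.04 and 13.7 CPM in ZKS cells and 8486 and 7778 CPM in pericytes (log2 change -9.54 ± 0.17, adjusted p = 0.000159). The collagen col14a1b was higher, at 1.4 and 1.52 CPM in ZKS cells and 0 and 0 CPM in pericytes (at least 3.4-fold higher, adjusted p = 0.0161). Cross-linking and hydroxylating enzymes were divided. LOXL4 (ENSDARG00000025089, log2 change 3.69 ± 0.60), LOXL2 (ENSDARG00000044074, log2 change 1.43 ± 0.27), PLOD1 (log2 change 0.94 ± 0.18) and LOX (log2 change 0.68 ± 0.19) were higher. LOXL1 (1250-fold lower, with a counting interval of 346 to 10300) and the LOXL2 copy loxl2a (log2 change -5.66 ± 0.55) were lower.

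The matrix genes higher in ZKS cells formed a short list. Beside EFEMP2 it held THBS4 (ENSDARG00000020072), a thrombospondin of tendon, at 2352 and 2266 CPM in ZKS cells and 41.96 and 62.6 CPM in pericytes (log2 change 5.01 ± 0.26, adjusted p = 0.000509), THBS1 at 1029 and 956 CPM in ZKS cells and 57.5 and 64.00 CPM in pericytes (log2 change 3.56 ± 0.18, adjusted p = 0.000524) and the tenascin tnn (log2 change 4.46 ± 1.05). HSPG2 and SMOC1 were the 2 higher basement membrane genes, and HSPG2, perlecan, was at 152 and 132 CPM in ZKS cells and 32.8 and 29.9 CPM in pericytes (log2 change 1.69 ± 0.21, adjusted p = 0.00363). The thrombospondins were not alike, since THBS3 (ENSDARG00000077641) was at 1.51 and 0.2 CPM in ZKS cells and 1604 and 1358 CPM in pericytes (log2 change -10.05 ± 0.37, adjusted p = 0.000289) and thbs2a was at least 916-fold lower. Among proteoglycans bcan was 404-fold higher, with a counting interval of 112 to 3340, while versican vcanb was 14200-fold lower, with a counting interval of 2540 to 560000 and the hyaluronan synthase HAS2 was 1040-fold lower, with a counting interval of 286 to 8550.

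Matrix receptors and proteases were more often lower than higher. Of 51 integrin and focal adhesion genes tested, 8 (15.7%) were higher and 22 (43.1%) lower, against 19.2% and 29.0% among all tested genes. ITGA10 (ENSDARG00000002507), the alpha chain of a collagen receptor, was at 2821 and 2499.7 CPM in ZKS cells and 5.57 and 15.3 CPM in pericytes (log2 change 7.57 ± 0.47, adjusted p = 0.000781), and ITGA5 (ENSDARG00000006353), the alpha chain of the fibronectin receptor, at 0.65 and 1.62 CPM in ZKS cells and 575 and 567 CPM in pericytes (log2 change -8.44 ± 0.32, adjusted p = 0.000289). The collagen receptor chain was thus higher where COL1A1 (ENSDARG00000035809) was lower, and the fibronectin receptor chain was lower together with FN1 (ENSDARG00000006526). Their other copies were lower too, with more reads left in ZKS cells. The second FN1 (ENSDARG00000019815) averaged 299 CPM there against 963 CPM in pericytes, and col1a1a 101 against 920 CPM. Of 55 proteases and inhibitors 7 (12.7%) were higher and 34 (61.8%) lower. With MMP9, the collagenase mmp13b was at 172 and 158 CPM in ZKS cells and 0 and 1.15 CPM in pericytes (log2 change 6.52 ± 0.51, adjusted p = 0.00128), and the inhibitor TIMP2 (ENSDARG00000075261) at 1322 and 1249.5 CPM in ZKS cells and 246 and 266 CPM in pericytes (log2 change 1.87 ± 0.18, adjusted p = 0.00197). ADAMTS1, which cleaves versican, was 3190-fold lower, with a counting interval of 882 to 26300, and serpinf1, an inhibitor of vessel growth, was at 0.43 and 0.2 CPM in ZKS cells and 666 and 754 CPM in pericytes (log2 change -9.36 ± 0.26, adjusted p = 0.000224).

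Contractile genes were mostly lower, and so were both vimentin genes. Of 41 contractile genes tested, 4 were higher and 24 lower. acta2 (ENSDARG00000045180), smooth muscle actin, was at 0.22 and 0.2 CPM in ZKS cells and 1052 and 525 CPM in pericytes (log2 change -9.53 ± 0.39, adjusted p = 0.000342), and MYH11 (ENSDARG00000009782), smooth muscle myosin, at 0.22 and 0.61 CPM in ZKS cells and 689 and 219 CPM in pericytes (log2 change -8.40 ± 0.58, adjusted p = 0.00101). VIM (ENSDARG00000010008), the vimentin gene with the most reads, was at 0 and 0 CPM in ZKS cells and 659 and 625 CPM in pericytes (at least 1980-fold lower, adjusted p = 0.000222), and its other copy VIM (ENSDARG00000044501) was lower too (log2 change -4.85 ± 0.46). Both actin and myosin were under 1 CPM in ZKS cells, and the first of these vimentin genes, which encode a filament of mesenchymal cells, had 0 reads there. Of 68 genes tested in the actin cytoskeleton list, 15 (22.1%) were higher, near the 19.2% among all tested genes. The lower ones numbered 32 (47.1%), above the 29.0% among all tested genes. Its higher members included the cofilin CFL2 (log2 change 3.36 ± 0.33), the tubulin tuba1b (log2 change 2.04 ± 0.24) and the lamin LMNB1 (log2 change 2.32 ± 0.18).

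Of 50 junction genes 6 were higher and 31 lower. CDH11 (ENSDARG00000021442), the cadherin of bone and mesenchyme, was at 487 and 489.6 CPM in ZKS cells and 126 and 101 CPM in pericytes (log2 change 1.66 ± 0.20, adjusted p = 0.00331), and CDH7 at 58.1 and 51.5 CPM in ZKS cells and 1.71 and 2.43 CPM in pericytes (log2 change 3.81 ± 0.36, adjusted p = 0.00198). cdh6 was 2590-fold lower, with a counting interval of 717 to 21400, and the claudin cldnb, an epithelial gene, at least 99.7-fold lower. Epithelial marker sums moved the same way as the claudins, and their part was not tested.

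Wnt genes were more often lower than higher, and their secreted inhibitors differed in both directions. Of 57 tested, 11 were higher and 30 lower (median -1.74). FZD1 (ENSDARG00000106062), a Frizzled receptor, was at 196 and 168 CPM in ZKS cells and 2.85 and 0 CPM in pericytes (log2 change 6.23 ± 0.73, adjusted p = 0.00319). Among secreted inhibitors dkk1a was at 47.6 and 41.6 CPM in ZKS cells and 0 and 0.57 CPM in pericytes (log2 change 4.91 ± 0.46, adjusted p = 0.00197), dkk1b at 19.8 and 35.9 CPM against 0 and 0 CPM (at least 64.8-fold higher, adjusted p = 0.0027) and WIF1 at 216 and 218 CPM in ZKS cells and 7.42 and 36.6 CPM in pericytes (log2 change 3.18 ± 0.73, adjusted p = 0.0202). Dkk, Wif1 and the deacylase notum1b (log2 change 1.90 ± 0.29) were therefore all higher in ZKS cells. The Frizzled-related inhibitors were lower, with SFRP5 at 0 and 0.61 CPM in ZKS cells and 152 and 58.4 CPM in pericytes (log2 change -6.49 ± 0.58, adjusted p = 0.00172), SFRP1 (ENSDARG00000035521) at 0 and 0 CPM in ZKS cells and 60.2 and 54.98 CPM in pericytes (at least 178-fold lower, adjusted p = 0.000835) and frzb at 0 and 0.4 CPM in ZKS cells and 60.4 and 49.4 CPM in pericytes (log2 change -5.80 ± 0.41, adjusted p = 0.00105). RSPO3, which amplifies Wnt signals, was 629-fold lower, with a counting interval of 174 to 5200. RYK and WNT7B were not called.

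BMP and TGF-beta genes differed in both directions among ligands and antagonists, with 13 higher and 26 lower of 61. GDF10 (ENSDARG00000073891), a BMP-related ligand, was at 167 and 218 CPM in ZKS cells and 0.43 and 0 CPM in pericytes (903-fold higher, with a counting interval of 309 to 4380). The activin chains INHBB (ENSDARG00000040777) and INHBA (ENSDARG00000024759) were at 106 and 92.9 CPM in ZKS cells and 3.71 and 5.73 CPM in pericytes (log2 change 3.74 ± 0.33, adjusted p = 0.00164) and 76.1 and 62.4 CPM in ZKS cells and 2.28 and 4.87 CPM in pericytes (log2 change 3.59 ± 0.42, adjusted p = 0.0032). BMP4 (ENSDARG00000019995) was at 4.1 and 4.05 CPM in ZKS cells and 118 and 111 CPM in pericytes (log2 change -4.91 ± 0.27, adjusted p = 0.000597), and the myostatin mstnb at 0 and 0 CPM in ZKS cells and 118 and 97.6 CPM in pericytes (at least 332-fold lower, adjusted p = 0.000537). The other INHBA copy, ENSDARG00000012671, was lower, at 64.4 and 58.2 CPM in ZKS cells and 132 and 77.03 CPM in pericytes (log2 change -1.16 ± 0.30, adjusted p = 0.0293), so the activin chain genes differed in both directions. FSTL3 and FST (ENSDARG00000057992), which bind activin, were lower (log2 change -5.90 ± 0.25 and 146-fold lower, with a counting interval of 49.5 to 711). Noggin nog2, the decoy receptor BAMBI (ENSDARG00000055381) and the inhibitory SMAD6 (ENSDARG00000031763) were higher, with nog2 at 168 and 138 CPM in ZKS cells and 15.6 and 9.88 CPM in pericytes (log2 change 3.07 ± 0.29, adjusted p = 0.00199).

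Growth factor genes were more often lower than higher, with receptors called in each direction. FGFR3 (ENSDARG00000004782) was at 566 and 472 CPM in ZKS cells and 3.43 and 17.3 CPM in pericytes (log2 change 5.42 ± 0.70, adjusted p = 0.00412), and MET, the receptor of hepatocyte growth factor, at 255 and 255 CPM in ZKS cells and 15.99 and 11.9 CPM in pericytes (log2 change 3.67 ± 0.24, adjusted p = 0.000888). PDGFRA, the other PDGF receptor, was at 20.6 and 9.31 CPM in ZKS cells and 439 and 422 CPM in pericytes (log2 change -5.29 ± 0.36, adjusted p = 0.000986). Both PDGF receptor genes were lower in ZKS cells and the ligands PDGFC (log2 change 3.01 ± 0.38) and PDGFA (ENSDARG00000110069) (log2 change 2.02 ± 0.49) higher. Insulin-like growth factor genes among the lower members included igf2a at 0.43 and 0 CPM in ZKS cells and 171 and 78.9 CPM in pericytes (log2 change -6.88 ± 0.50, adjusted p = 0.00109) and the binding protein IGFBP5 (ENSDARG00000025348) at 32.9 and 26.3 CPM in ZKS cells and 788 and 1041 CPM in pericytes (log2 change -5.34 ± 0.24, adjusted p = 0.00038). Of 61 genes of FGF, EGF, PDGF and IGF signalling 13 (21.3%) were higher, near the 19.2% among all tested genes. The lower ones numbered 27 (44.3%), above the 29.0% among all tested genes.

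Notch and hedgehog genes were mostly lower, and the Notch ligands differed in both directions. Of 22 Notch genes 13 were lower and 2 higher, and of 19 hedgehog genes 10 and 2. The Notch ligand DLL1 (ENSDARG00000020219), counted with the niche factors and not among these 22, was at 243 and 201 CPM in ZKS cells and 1 and 0.57 CPM in pericytes (log2 change 6.64 ± 0.32, adjusted p = 0.000433), and dll4 at 0.43 and 0.61 CPM in ZKS cells and 41.1 and 31.8 CPM in pericytes (log2 change -4.91 ± 0.41, adjusted p = 0.00151). NOTCH3, the Notch receptor of mural cells, was at 52.4 and 52.6 CPM in ZKS cells and 154 and 135 CPM in pericytes (log2 change -1.89 ± 0.20, adjusted p = 0.00262). The hedgehog co-receptors BOC (log2 change -4.25 ± 0.21) and CDON (log2 change -2.56 ± 0.20) were lower while ihha was higher.

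Of 71 axon guidance genes, which also pattern vessels, 11 were higher and 31 lower. SEMA3D (ENSDARG00000017369) was at 1.08 and 0.2 CPM in ZKS cells and 373 and 1122 CPM in pericytes (log2 change -8.99 ± 0.61, adjusted p = 0.00096), and SLIT2 (ENSDARG00000004246) at 0.86 and 2.63 CPM in ZKS cells and 345 and 325 CPM in pericytes (log2 change -7.37 ± 0.39, adjusted p = 0.00056). SEMA3E, another semaphorin, was at 22.9 and 22.1 CPM in ZKS cells and 1 and 0.86 CPM in pericytes (log2 change 3.27 ± 0.41, adjusted p = 0.0037), and the netrin NTN1 (ENSDARG00000105112) at 48.9 and 38.96 CPM in ZKS cells and 6.14 and 1.15 CPM in pericytes (log2 change 3.13 ± 0.66, adjusted p = 0.0157). The 2 semaphorins thus differed in opposite directions, and UNC5B (log2 change 3.32 ± 0.59), a netrin receptor, was higher together with its ligand.

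Niche and blood growth factor genes were more often lower than higher. Of 54 niche and blood growth factor genes tested, 9 were higher and 27 lower. CXCL12 (ENSDARG00000037116), which retains blood stem cells, was at 0 and 1.01 CPM in ZKS cells and 855 and 665 CPM in pericytes (log2 change -9.33 ± 0.39, adjusted p = 0.000356), and its copy cxcl12b was 215-fold lower, with a counting interval of 73.2 to 1050. MDK (ENSDARG00000036036), midkine, was at 0 and 0 CPM in ZKS cells and 218 and 263 CPM in pericytes (at least 742-fold lower, adjusted p = 0.000315), and il7 was at least 60.7-fold lower. The Kit ligand kitlga was not called, at 30.4 and 22.5 CPM in ZKS cells and 44.2 and 27.6 CPM in pericytes (adjusted p = 0.0895), nor was il34, at 92.4 and 97.6 CPM in ZKS cells and 56.5 and 56.3 CPM in pericytes. thpo, the cytokine added to some of the co-cultures of the series, was at 0 in ZKS cells and at 0.29 and 0.43 CPM in pericytes, at or under the limit that 3 reads set.

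Immune and lipid mediator lists held more lower than higher members. Of 30 complement and coagulation genes tested, 2 were higher and 21 lower (median -3.49, or -4.04 with bounds). c4 (ENSDARG00000015065), complement C4, was at 0.97 and 1.52 CPM in ZKS cells and 1670.5 and 1263 CPM in pericytes (log2 change -9.69 ± 0.27, adjusted p = 0.000224), and F13A1 (ENSDARG00000045453), a clotting factor chain, at 0 and 0 CPM in ZKS cells and 241 and 158 CPM in pericytes (at least 616-fold lower, adjusted p = 0.000406). Prostaglandin genes were higher for 2 and lower for 13 of 27. Both cyclooxygenase types were lower, ptgs1 at 0 and 0 CPM in ZKS cells and 327 and 274 CPM in pericytes (at least 927-fold lower, adjusted p = 0.000289) and PTGS2 (ENSDARG00000004539) at 0 and 0 CPM in ZKS cells and 202 and 385 CPM in pericytes (at least 906-fold lower, adjusted p = 0.000509). The second PTGS2 (ENSDARG00000010276) was lower too (log2 change -3.28 ± 0.32) but still present in ZKS cells. It averaged 19.9 CPM over the ZKS libraries and 151 CPM over the pericyte libraries. The enzyme that breaks prostaglandins down, HPGD, was also lower (at least 50.5-fold lower).

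The NF-kB list held 1 higher and 29 lower of 50, and the interferon list 3 and 18 of 44. isg15, a ubiquitin-like protein made in response to interferon, went against that list at 215 and 311 CPM in ZKS cells and 4.28 and 6.73 CPM in pericytes (log2 change 4.92 ± 0.36, adjusted p = 0.00109). STAT3 (ENSDARG00000022712), which carries cytokine signals, was at 7.77 and 3.64 CPM in ZKS cells and 143 and 78.6 CPM in pericytes (log2 change -4.48 ± 0.45, adjusted p = 0.0022), and IRF7 at 76.02 and 86.3 CPM in ZKS cells and 56.2 and 57.7 CPM in pericytes (adjusted p = 0.864). isg15 was thus high in ZKS cells without a call for its regulator IRF7. Macrophage marker sums were also higher in the pericyte libraries, at 5591 and 6321 CPM against 87.2 and 99.9 CPM, and their part in these immune groups was not tested.

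Early response genes were mostly lower, with 41 of 48 lower and 1 higher. The higher one was fosl1b (325-fold higher, with a counting interval of 89.7 to 2690), whose copy FOSL1 was lower, at 738 and 564 CPM in ZKS cells and 3929 and 4436 CPM in pericytes (log2 change -3.15 ± 0.21, adjusted p = 0.00098). NR4A1 and DUSP2 were not called, with NR4A1 at 397 and 335 CPM in ZKS cells and 387 and 249 CPM in pericytes. Cytosolic chaperones held 4 higher and 11 lower of 30, and their median of -0.42 turned to 0.02 with CPM as deposited. BAG3 (ENSDARG00000039486), a co-chaperone induced by heat shock, was at 7.77 and 7.59 CPM in ZKS cells and 1389.9 and 1386 CPM in pericytes (log2 change -7.75 ± 0.19, adjusted p = 0.000222), and members of the CCT ring such as CCT4 were higher (log2 change 1.00 ± 0.21).

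Genes of G protein signalling were mostly lower, and channel genes were lower for 42.6%. Of 64 genes of G protein signalling tested, 7 were higher and 38 lower (median -2.08, or -2.11 with bounds). ADM (ENSDARG00000015263), the dilator peptide adrenomedullin, was at 4.75 and 5.06 CPM in ZKS cells and 351 and 243 CPM in pericytes (log2 change -6.05 ± 0.28, adjusted p = 0.000402), and ramp2, a subunit of its receptor, at 0.97 and 2.02 CPM in ZKS cells and 297 and 232 CPM in pericytes (log2 change -7.11 ± 0.34, adjusted p = 0.000433). AGTR2 (ENSDARG00000035552), an angiotensin receptor, was at 0.22 and 0 CPM in ZKS cells and 101 and 119 CPM in pericytes (1050-fold lower, with a counting interval of 291 to 8700). The endothelin gene edn2 was higher, at 56.1 and 53.2 CPM in ZKS cells and 0.86 and 2 CPM in pericytes (log2 change 4.20 ± 0.43, adjusted p = 0.00237), and so was the lipid receptor s1pr5a, at 321 and 284 CPM in ZKS cells and 37.7 and 24.3 CPM in pericytes (log2 change 2.83 ± 0.26, adjusted p = 0.0019). Of 61 channel and pump genes 6 were higher and 26 lower.

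Iron and redox lists held shares of higher and lower members near or below the background. Of 16 metal and iron genes 3 were higher and 2 lower, and of 35 antioxidant genes 8 and 9. The transferrin receptor tfr1b was at 117 and 94.2 CPM in ZKS cells and 2.85 and 3.44 CPM in pericytes (log2 change 4.28 ± 0.30, adjusted p = 0.00104), and the ferritin FTH1 (ENSDARG00000007975) at 102 and 98.3 CPM in ZKS cells and 2 and 0.29 CPM in pericytes (log2 change 5.36 ± 0.53, adjusted p = 0.00215). The ferritin genes with more reads, fth1a and fthl27, were not called. The redox regulator existed as 2 copies that differed in opposite directions, NFE2L2 (ENSDARG00000042824) at 105 and 84.00 CPM in ZKS cells and 365 and 343 CPM in pericytes (log2 change -2.36 ± 0.19, adjusted p = 0.00139) and nfe2l2b at 61.4 and 47.1 CPM in ZKS cells and 0 and 0.29 CPM in pericytes (378-fold higher, with a counting interval of 104 to 3120). Of 40 lysosome genes 11 were higher and 10 lower. Cathepsins differed in both directions, with CTSD higher, at 549.6 and 610.2 CPM in ZKS cells and 63.2 and 66.9 CPM in pericytes (log2 change 2.68 ± 0.20, adjusted p = 0.00109), and the cathepsin S gene ctss2.1 lower, at 3.46 and 4.45 CPM in ZKS cells and 126 and 165 CPM in pericytes (log2 change -5.29 ± 0.31, adjusted p = 0.000676).

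Gene copies called in both members mostly shared a direction, and some did not. Among 1384 pairs of tested genes that share a symbol or a symbol stem, both members were called in 414 (29.9%). Of these, 239 were both lower, 64 both higher and 111 opposite (26.8%). Among all tested genes 48.2% were called, and 39.8% of the calls were higher. Unrelated called genes would therefore also often share a direction, and how often was not computed. Pairs were matched by name, so some are relatives rather than duplicates, and near-identical copies may share reads. PRRX1 (ENSDARG00000033971) was at 1077 and 943 CPM in ZKS cells and 98.05 and 68.3 CPM in pericytes (log2 change 3.15 ± 0.23, adjusted p = 0.00109), and the second PRRX1, PRRX1 (ENSDARG00000042027), at 0.65 and 0.2 CPM in ZKS cells and 19.4 and 22.3 CPM in pericytes (log2 change -4.24 ± 0.43, adjusted p = 0.00235). NRP2 (ENSDARG00000096546), a semaphorin and VEGF co-receptor, was at 307 and 301 CPM in ZKS cells and 94.8 and 53.98 CPM in pericytes (log2 change 1.62 ± 0.30, adjusted p = 0.011), and the second NRP2, NRP2 (ENSDARG00000038446), at 1.94 and 0.61 CPM in ZKS cells and 38.4 and 61.6 CPM in pericytes (log2 change -4.86 ± 0.49, adjusted p = 0.00225). PAMR1 (ENSDARG00000103184) was at 150.4 and 114 CPM in ZKS cells and 0.86 and 0 CPM in pericytes (log2 change 6.32 ± 0.47, adjusted p = 0.00117), and its namesake PAMR1 (ENSDARG00000093480) was at least 40.4-fold lower. In each of these pairs the groups did not overlap for either copy. The same held for most tested genes, 43.1% with ZKS cells above and 34.9% with ZKS cells below. The nucleolar gene npm1a at 295 and 302 CPM in ZKS cells and 17.6 and 51.8 CPM in pericytes (log2 change 2.81 ± 0.53, adjusted p = 0.0114) and its copy npm1b at 19.3 and 22.1 CPM in ZKS cells and 47.96 and 58.6 CPM in pericytes (log2 change -1.76 ± 0.27, adjusted p = 0.00683) formed another such pair, as did the citrate lyase genes ACLY (ENSDARG00000099079, log2 change 2.40 ± 0.19) and ACLY (ENSDARG00000055652, log2 change -3.78 ± 0.48). These pairs were chosen after their values were seen.

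**Figure D5:**
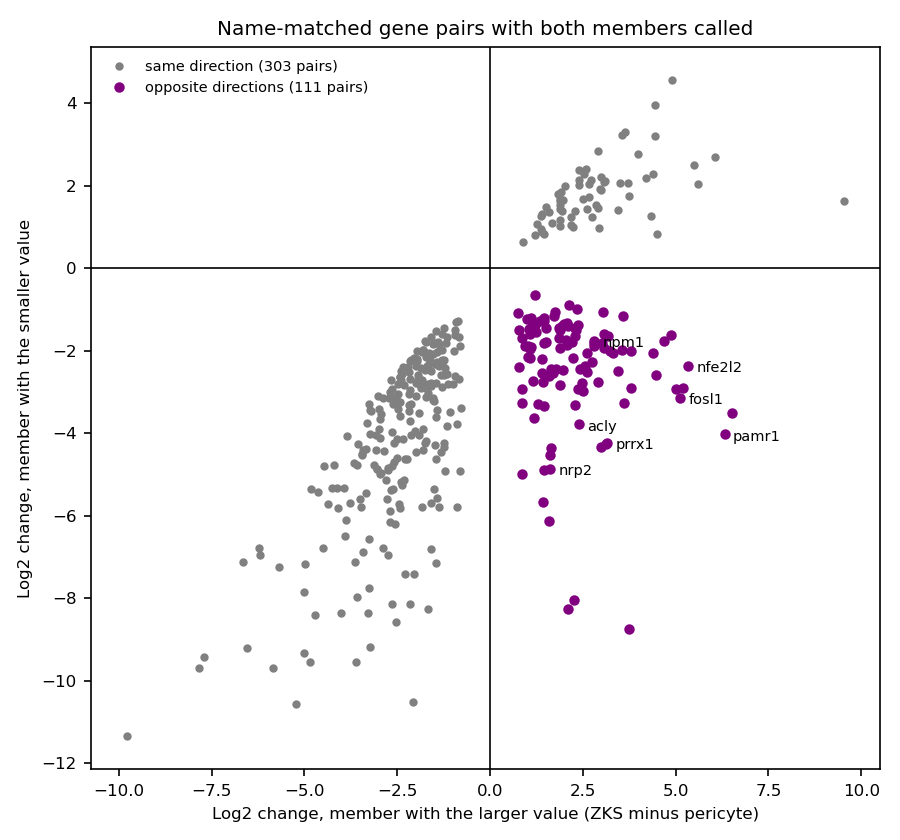
Log2 change (ZKS minus pericyte) of the member with the larger value against that of the member with the smaller value for the 414 name-matched pairs in which both were called, with 0 marked by lines. Pairs in the lower right quadrant, 111 of them, differ in opposite directions, and the named points are pairs given in the text.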

How the data were processed

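Cells were sorted from adult kidney into lysis buffer, reverse-transcribed from an oligo-dT primer, poly-A tailed, amplified by PCR and prepared with Nextera XT, per the labels' protocols. No molecular identifiers are described, so intervals and floors cover counting error only. The authors deposited CPM (reads of a gene after every library is brought to the same sum), to 2 decimals. The submitters' processing notes name HISAT2 2.1.0, Subread 1.6.4 and the build GRCz11, while for settings, annotation and strand the sources used here give nothing. Of 32047 identifiers 28978 have a symbol in the gene name table used here.

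Depth was recovered from the CPM steps, with all values within 0.1 read of a whole number. In ZKS replicate 2 a read is worth close to 0.1 CPM (0.101), so its low values alone could not tell that step from rounding, and its total rests on its higher values. CPM of the 4 libraries was scaled by TMM factors of 1.21, 1.13, 0.866 and 0.842. Genes with at least 1 CPM in 2 libraries were tested on log2(CPM + 1) with limma 3.58.1 (trended empirical Bayes, R 4.3.3) and Benjamini-Hochberg adjustment over all 14392 genes at 0.05, so fold changes of low genes are understated. Tests were run on simulated data first. edgeR 4.0.16 and DESeq2 1.42.0 on the recovered reads were alternatives, with other scalings, pseudocounts and filters, a replicate block, the sinusoid libraries in the fit and each replicate left out. Deviations of same-numbered libraries correlated at 0.0717, so the numbers were not taken to pair samples.

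The 78 gene lists and their members were chosen with earlier results of these data known. Named genes are the 15 largest called changes each way with at least 10 CPM in the higher group, up to 8 called members per list with the largest change and up to 4 that were not called or went against it, cell markers, the 10 genes with most reads per group and gene copies, while others are said to be chosen after their values were seen. Lists were not tested as sets. Some genes are not reported here.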

Additional observations from a re-analysis of the deposited data

How the results depend on the processing

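Fits with median-ratio size factors, a pseudocount of 0.5 or 5, no filter, edgeR, DESeq2 or the 2 sinusoid libraries in the fit gave 5366 to 6935 calls against the 6934 reported, and CPM as deposited gave 7578. A filter of 10 CPM, which left 8314 genes to test, gave 4481 calls, 2494 of them lower. With the replicate number as a block there were 7847 calls, 6810 of them among the 6934. Calls shared with edgeR (6061) and DESeq2 (6202) had the same direction. With limma, leaving out each library in turn gave 0 to 5962 calls, of which 0 to 2510 were higher and 0 to 3452 lower. Fits chosen after seeing the data left out a library with the sinusoid libraries in the fit, where a lone sample is assumed to vary like the other groups, or with edgeR. With the sinusoid libraries they gave 2173 (629 higher, 1544 lower) without ZKS replicate 1 and 2071 (582 higher, 1489 lower) without ZKS replicate 2, and with edgeR 2479 (757 higher, 1722 lower) and 2417 (709 higher, 1708 lower). Without a pericyte library they gave 4625 to 5761 calls, with 1825 and 1665 higher genes for replicates 1 and 2 where the sinusoid libraries were in the fit.

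Of 304 named genes tested, 266 were called. Of these 266, 4 lost the call with CPM as deposited, 3 with edgeR, 4 with DESeq2 and 9 with the sinusoid libraries in the fit. With limma all 266 lost it without either ZKS library, and 18 and 19 without pericyte replicates 1 and 2. Without ZKS replicates 1 and 2, 83 and 85 lost it with the sinusoid libraries in the fit and 40 in each case with edgeR. Without pericyte replicates 1 and 2 those numbers were 49 and 46, and 7 and 9. kdrl, not called with all libraries, had a log2 change of -0.78 (limma adjusted p = 0.0375) without pericyte replicate 1 and 0.68 (adjusted p = 0.0456) without replicate 2. Medians near 0 changed sign. For translation factors the median was 0.19 with CPM as deposited and -0.43 to 0.07 with a library left out (-0.42 to 0.07 with limma on 3 libraries). For bone and cartilage genes it was 0.21 with CPM as deposited, 0.11 at a pseudocount of 0.5, 0.92 at the filter of 10 CPM and -1.75 to 0.63 with a library left out (-1.58 to 0.61 with limma on 3 libraries). For chaperones it was 0.02 with CPM as deposited. Other list medians kept their sign but moved by at least the median standard error of their members. These were 25 with CPM as deposited, 28 at a pseudocount of 5, 22 with DESeq2 and 19 with edgeR. With median-ratio size factors none of the 51 did. Counts moved too: with CPM as deposited, higher members rose from 28 to 39 for the nuclear respiratory chain and from 20 to 29 for nuclear transport. The cause of these changes was not tested.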

Other observations

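Beside the comparison, the 2 pericyte libraries differed from each other for many genes. Of the 14392 tested genes, 3907 (27.1%) differed between them by more than 1 on the log2 scale and 792 (5.5%) by more than 2, against 822 (5.71%) and 10 between the 2 ZKS libraries. Class I histocompatibility genes, which present peptides to T cells and are carried as different sets of genes by different zebrafish, stood among the largest of these differences. mhc1uba was at 358.1 CPM in pericyte replicate 1 and 0 in replicate 2, and at 35.09 and 32.18 CPM in ZKS cells. mhc1zba, at 343.7 and 354.93 CPM in ZKS cells, fell between pericyte values of 501.4 and 21.33 CPM, and mhc1zaa had pericyte values of 89.92 and 5.44 CPM beside 0 in both ZKS libraries. The ZKS replicates were alike for all 3 genes and the pericyte replicates were not. These genes were chosen after their values were seen, and with 1 library on each side their difference has no replicate check.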
